A study of Homo sapiens with 12 samples.

Results

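With values scaled to spike-in RNAs, only 3 transcripts were abundant in both ovarian cancer lines and still near or above their untreated level after the high dose of THZ1: IER3, SAT1 and BCYRN1. They were chosen by their measured values, as the rows with a mean FPKM (read fragments scaled to transcript length and library size) of 20 or more in DMSO and a mean at 250 nM THZ1 of at least 0.75 times the DMSO mean, in each line. ERCC RNAs, the synthetic spike-in RNAs, and rows with microRNA, snoRNA or Cajal body RNA names were left out. The tables hold 23621 rows that are not ERCC RNAs. Of these, 14251 had an FPKM above 1 in any library (active genes), and 4526 reached the DMSO minimum in both lines (abundant rows). SNORD116-22 met both limits on its values and was left out by its name. Its mean of 89.3 FPKM in Ku DMSO libraries came from 0.138, near the lowest value of that library, and 179.

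The 12 RNA-seq libraries come from KURAMOCHI (Ku) and COV362 (Cov), human ovarian cancer cell lines labelled as untransduced controls. Ku cells were grown in RPMI and Cov cells in DMEM, both with fetal bovine serum, so line and medium cannot be told apart. Each line has 2 replicates of DMSO, the vehicle that serves as control, 2 of THZ1 at 50 nM and 2 at 250 nM, all taken after 6 hr. RNA was matched by cell count and mixed with ERCC RNAs, and the deposited FPKM are normalized to them, so a ratio below 1 means less RNA per cell on the spike-in scale. In such bulk libraries, fewer cells that express a gene and less of its RNA in each cell cannot be told apart.

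THZ1 binds covalently to CDK7, CDK12 and CDK13, the kinases that phosphorylate RNA polymerase II at initiation and during elongation. How much of an RNA is left after such an inhibitor depends both on how fast it is made and on how fast it decays, and steady-state libraries do not separate these. IER3 is an immediate early gene, a class induced by growth factors and stress without new protein synthesis, and its small membrane-associated protein takes part in survival signalling. SAT1 encodes spermidine/spermine acetyltransferase, the enzyme that starts the breakdown and export of polyamines, the small cations made by ODC1, AMD1, SRM and SMS. BCYRN1 encodes BC200 RNA, a non-coding RNA derived from an Alu repeat, made by RNA polymerase III and known to hold down translation. It is best known from neurons and is also found in many tumours.

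The SAT1 promoter is shown because no promoter sequence of IER3 or BCYRN1 was available. The stretch runs from 250 bases before the start site to 50 after it, at chrX:23782923-23783222 of GRCh38.p14 on the plus strand (RefSeq). Capitals mark the letters CCAAT on either strand.
SAT1 promoter: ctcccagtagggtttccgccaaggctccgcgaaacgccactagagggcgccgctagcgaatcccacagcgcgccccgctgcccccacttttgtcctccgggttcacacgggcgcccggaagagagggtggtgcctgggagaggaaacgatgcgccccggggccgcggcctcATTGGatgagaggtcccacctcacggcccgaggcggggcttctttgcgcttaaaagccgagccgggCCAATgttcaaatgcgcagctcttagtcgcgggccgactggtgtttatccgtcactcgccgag

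CCAAT occurs 13 bases upstream of the start site on the gene's strand and 79 bases upstream as its reverse complement, counted to the first base of each match. Searched on both strands, CCAAT was found in 34.6% of 35116 promoters of the same length, TATAAA in 11.5% and GGGCGG in 45.0%. The SAT1 stretch holds 2 matches of CCAAT and none of TATAAA or GGGCGG. These are matches of letters and describe the sequence only. SAT1 was the single member found in the promoter table.

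The libraries lost RNA with dose on the spike-in scale. FPKM summed to between 607016 and 1234310 in Ku libraries and between 758681 and 1686570 in Cov libraries, lowest at 250 nM in each line. Pearson's r of replicate libraries over active genes was 0.968 to 0.983 on the log2 scale. Read counts are not in the tables, so depth is unknown. Epithelial and ovarian markers were present: PAX8, a Müllerian lineage factor, had a DMSO mean of 136 FPKM in Ku and 124.1 in Cov cells, and 10 of 13 listed markers in Ku and 12 of 13 in Cov cells were above 1 FPKM. WT1 had a mean of 0.653 in Cov cells, and MUC16, CDH1 and ESR1 lay between 0.166 and 0.468 in Ku cells. Of 9 blood and endothelial markers, 4 were above 1 FPKM in Ku and 2 in Cov cells, the highest being CDH5 with 8.23 and 7.75, while PTPRC, CD3E and HBB were at or below 0.235. The lowest FPKM of a library was 0.0564 to 0.118, so values near these do not show expression.

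Among the abundant rows the usual outcome at 250 nM was loss on the spike-in scale. The median ratio of 250 nM to DMSO was 0.434 in Ku and 0.366 in Cov cells. A ratio of 0.75 or more was reached by 221 rows in Ku cells (4.88%) and by 7 rows in Cov cells (0.155%), so the Cov libraries limited the choice. A ratio above 1 was found for 5 rows in Ku cells, 2 in Cov cells and 1 in both, which was SAT1. These spike-in values selected the members and are given as a description, with no test. With libraries scaled to equal median FPKM, the median log2 ratio of the abundant rows was 0.78 in Ku and 0.63 in Cov cells. A median-of-ratios scaling gave 0.26 and 0.17.

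**Figure D1:**
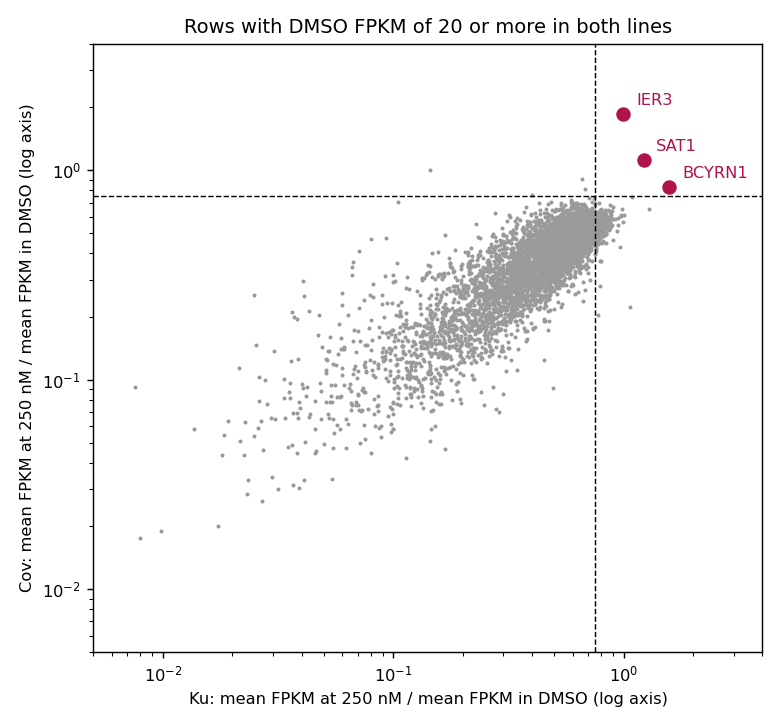
Ratio of mean FPKM at 250 nM to mean FPKM in DMSO for the 4526 abundant rows, Ku on the horizontal and Cov on the vertical axis, both logarithmic. Dashed lines mark the ratio of 0.75, and the 3 labelled points beyond both lines are the members, with IER3 highest in Cov cells (1.86) and BCYRN1 farthest right in Ku cells (1.58).

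IER3 kept its DMSO level in Ku and was above it in Cov cells. Its FPKM in Ku cells were 114 and 112 in DMSO, 95.2 and 89.99 at 50 nM, and 106 and 119 at 250 nM. The 50 nM libraries lay below both DMSO libraries, and the 250 nM libraries lay on either side of them. In Cov cells IER3 had 160 and 168 FPKM in DMSO, 114 and 108 at 50 nM, and 299 and 311 at 250 nM. No groups overlapped there, and the order was 50 nM, DMSO, 250 nM. The ratio of 250 nM to DMSO was 0.996 in Ku and 1.86 in Cov cells, where no abundant row had a higher one. Between the doses IER3 was 1.21 times higher at 250 nM than at 50 nM in Ku and 2.74 times higher in Cov cells.

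At 50 nM IER3 was lower than in DMSO, and this passed the test in Cov cells. The comparison with 50 nM uses libraries that the choice of members did not, but it shares the DMSO libraries with that choice. In limma with Benjamini-Hochberg adjustment over the active genes, calls needed an adjusted p under 0.001 together with a change of more than 0.5 on the log2(FPKM + 1) scale. IER3 fell by 0.56 ± 0.08 (SE) in Cov cells with an adjusted p of 0.000387. In Ku cells its log2 fold change was -0.28 ± 0.07 (SE) with an adjusted p of 0.0188, which was not called. The median log2 fold change of all active genes at 50 nM was -0.40 in Ku and -0.85 in Cov cells, so the IER3 difference was smaller than that median in both. The Cov call was lost without any 1 of the 4 libraries compared, with log2 fold changes from -0.60 to -0.52. It was also lost with the replicate number as a block in the limma fit (adjusted p of 0.00156). Scaled to equal median FPKM, the IER3 difference turned to 0.41 in Ku (adjusted p of 0.0128) and to 0.66 in Cov cells (adjusted p of 0.00297).

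Over the 3 members, none was called lower at 50 nM in Ku cells, where 11.3% of active genes were, and 1 (IER3) in Cov cells, where 70.5% were. The shares of all active genes at 50 nM moved with the settings. The 1607 genes called lower in Ku cells became 6 to 131 without any 1 of the 6 Ku libraries, 9 in a fit of the 2 groups compared, 3 with no minimum on FPKM and 105 with libraries scaled to equal median FPKM. The 10042 in Cov cells became 4314 without Cov DMSO replicate 2 and 21 at equal median FPKM. None of the members was called higher in either line, against 0.0842% of active genes in Ku and 0.0772% in Cov cells. At an unadjusted limma p under 0.05, IER3 was lower and SAT1 higher in both lines, and BCYRN1 was neither. An exact permutation test (two-sided) on 2 libraries each could reach a p of 0.33 at best.

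SAT1 had its highest values at the low dose. In Ku cells its FPKM were 32.3 and 25.5 in DMSO, 45.7 and 39.9 at 50 nM, and 37.5 and 33.0 at 250 nM. In Cov cells they were 28.8 and 32.3 in DMSO, 39.7 and 48.0 at 50 nM, and 35.8 and 32.8 at 250 nM. In both lines the 3 conditions did not overlap, and their order was DMSO, 250 nM, 50 nM, with gaps of under 1 FPKM between DMSO and 250 nM. The ratio of 250 nM to DMSO was 1.22 in Ku and 1.12 in Cov cells.

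At 50 nM the SAT1 ratio to DMSO was 1.48 in Ku and 1.44 in Cov cells. On the spike-in scale 7 of the 4526 abundant rows had a 50 nM ratio above 1 in both lines (0.155%), set mainly by Cov cells with 10 such rows beside 429 in Ku cells, and SAT1 was the only 1 at 1.4 or more in both, a limit just under its own lower ratio. ARGLU1 had 1.37 in Ku and 1.31 in Cov cells, and JUNB, which missed the DMSO minimum in Ku cells, had 1.87 and 1.495. Ratios above 1 in both lines were common under the other scalings, with 3259 abundant rows (72.0%) at equal median FPKM and 2633 (58.2%) by median of ratios. The log2 fold change was 0.56 ± 0.14 (SE) in Ku cells with an adjusted p of 0.0161 and 0.50 ± 0.12 (SE) in Cov cells with an adjusted p of 0.0045 (limma), neither of which was called. At an adjusted p under 0.05 SAT1 was called higher in both lines. Scaling to equal median FPKM raised the Cov value to 1.67 and made it a call (adjusted p of 0.000596).

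BCYRN1 varied most between replicates. Its FPKM in Ku cells were 19.1 and 33.3 in DMSO, 47.7 and 36.1 at 50 nM, and 33.0 and 49.7 at 250 nM. Both 50 nM libraries lay above both DMSO libraries, while the 250 nM libraries overlapped the DMSO libraries. In Cov cells BCYRN1 had 33.7 and 39.3 FPKM in DMSO, 17.4 and 55.9 at 50 nM, and 33.4 and 27.3 at 250 nM. There the 250 nM libraries lay just below DMSO and the 50 nM libraries lay on either side of all others. The ratio of 250 nM to DMSO was 1.58 in Ku cells, the highest of the abundant rows, and 0.832 in Cov cells.

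The SD within conditions on the log2 scale was 0.42 for BCYRN1 in Ku and 0.68 in Cov cells, against medians of 0.10 and 0.10 over the abundant rows. Just 4 abundant rows in Ku and 1 in Cov cells had a larger SD than BCYRN1. IER3, with 0.07 and 0.05, lay below the median in both lines, and SAT1, with 0.17 and 0.14, above it. At 50 nM the BCYRN1 log2 fold change was 0.70 ± 0.31 (SE) in Ku cells with an adjusted p of 0.102 and -0.21 ± 0.46 (SE) in Cov cells with an adjusted p of 0.676 (limma). In Cov cells BCYRN1 had -1.03 without the 50 nM library of replicate 2 and 0.61 without that of replicate 1. Scaled to equal median FPKM its Cov value was 0.97, and by median of ratios it was 0.78. The values without a 50 nM library rest on the 1 left, which limma takes to vary like the other groups. So do the IER3 values without single libraries, for the group they thin. Without Ku DMSO replicate 2, or without Cov 250 nM replicate 1, BCYRN1 no longer met the rule.

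**Figure D2:**
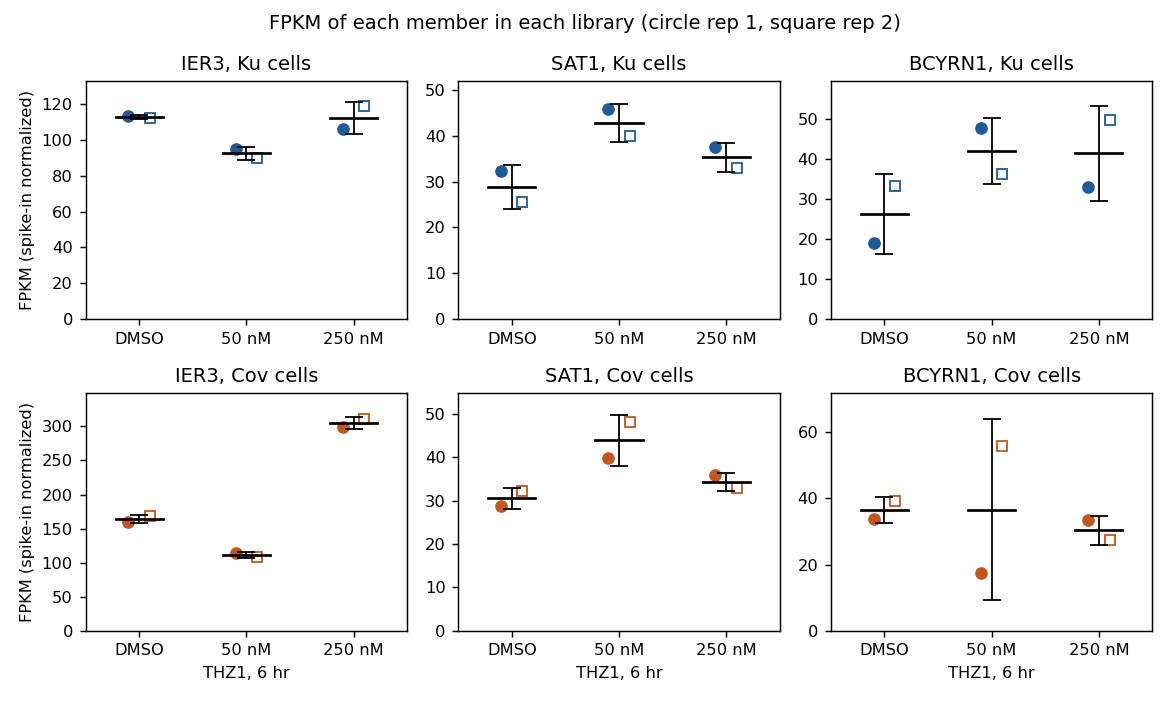
FPKM of IER3, SAT1 and BCYRN1 in every library, Ku cells above and Cov cells below. Circles are replicate 1, open squares replicate 2, bars the mean and whiskers the SD of 2 libraries. IER3 in Cov cells lies at 299 and 311 FPKM at 250 nM, SAT1 is highest at 50 nM in both lines, and the BCYRN1 replicates at 50 nM in Cov cells lie at 17.4 and 55.9.

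Each replicate was also put through the rule alone, a description of how evenly the replicates carried the means that made the choice. Replicate 1 gave 4 rows and replicate 2 gave 6. IER3 and SAT1 were picked by each, with ratios between 0.934 and 1.87 in single replicates. BCYRN1 was picked by neither, since its DMSO value in Ku replicate 1 was under 20 FPKM and its Cov ratio in replicate 2 was 0.695. The 2 rows that replicate 1 picked besides IER3 and SAT1, ATP5EP2 and RPL21, had Cov ratios of 0.577 and 0.436 in replicate 2.

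The closest abundant rows outside the set missed the ratio by little. ATP5EP2, an ATP synthase pseudogene, had ratios of 1.09 in Ku and 0.741 in Cov cells, MSLN (mesothelin, a surface antigen of ovarian cancer) had 0.741 and 0.735, and ARGLU1, a nuclear coactivator and splicing factor, had 0.707 and 0.737. BCYRN1, with 0.832 in Cov cells, was the member nearest to the ratio limit from inside, and with 26.2 FPKM in Ku DMSO libraries that nearest to the DMSO minimum. RHPN1 and GOLGA8B met the ratio in both lines (0.863 and 0.853, and 0.830 and 0.891) but had DMSO means below 20, RHPN1 with 14.6 FPKM in Cov cells and GOLGA8B with 11.4 in Ku and 13.99 in Cov cells. Their Ku replicates at 250 nM differed, with 18.5 and 28.6 FPKM for RHPN1 and 5.47 and 13.5 for GOLGA8B, beside DMSO means of 27.3 and 11.4.

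The lists of housekeeping mRNA differed in their ratios at 250 nM. The 84 abundant rows of cytoplasmic ribosomal proteins had median 250 nM ratios of 0.776 in Ku and 0.581 in Cov cells, the highest Ku median of the protein-coding lists. The 79 rows of the respiratory chain and ATP synthase had 0.689 and 0.550, and the 15 rows of glycolytic enzymes had 0.657 and 0.554. The 44 rows of the proteasome had 0.531 and 0.445, and the 56 rows of translation factors had 0.515 and 0.394. The 71 rows of mitochondrial ribosomal proteins, with 0.343 and 0.345, lay below the medians of all abundant rows.

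All members come from short genes. IER3 (ENSG00000137331) spans 1350 bp at chr6:30710976-30712325 of GRCh37 on the minus strand, with 2 exons and a canonical RNA of 1237 nt. SAT1 (ENSG00000130066) spans 3038 bp at chrX:23801290-23804327 on the plus strand, with 6 exons and 1049 nt. BCYRN1 (ENSG00000236824) spans 200 bp on chromosome 2, as a single exon. The libraries were made from poly(A) RNA, and how RNA made by polymerase III passed that step was not tested. Over the 4206 abundant rows matched to the annotation (92.9%), the median span was 25872.5 bp, with 9 exons and 2548.5 nt in the canonical RNA. The 222 rows with a span of up to 3038 bp had a median 250 nM ratio of 0.502 in Ku and 0.493 in Cov cells, and the 3984 longer rows had 0.432 and 0.358. The ratio of 0.75 was reached in Cov cells by 6 of the 222 short rows and by 1 of the 3984 longer rows. In Ku cells it was reached by 30 and 167. Without the 3 members, 3 short rows in Cov and 27 in Ku cells reached it. The length limit was taken from the members themselves, so these counts were not tested.

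**Figure D3:**
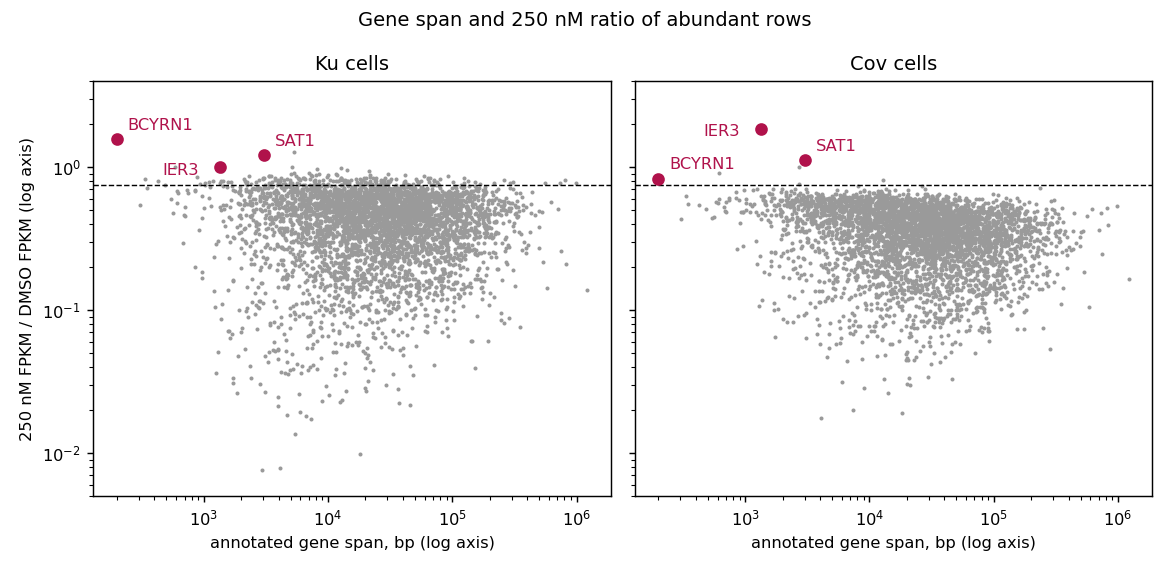
Ratio of 250 nM to DMSO FPKM against the annotated gene span in bp for 4206 abundant rows, Ku left and Cov right, all axes logarithmic. The dashed line is the ratio of 0.75, and the members lie at spans of 200, 1350 and 3038 bp, left of the median of 25872.5 bp.

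Genes overlapping the members could share their reads. IER3 overlaps the lncRNA genes IER3-AS1 and HCG20 on the other strand, BCYRN1 lies wholly inside EPCAM-DT on the other strand, and SAT1 shares 90 bp with ENSG00000288706 on its own strand. The libraries were made with a stranded kit, and the strand setting used in quantification is not given in the sources used here. Of the 126 windows of 75 nt, the read length, in BCYRN1, 66 (52.4%) have an exact copy elsewhere in GRCh37, at 3 other loci, and 127 other loci match at least 60% of the RNA at 90% identity or more. A read from such a window cannot be placed by its sequence, so the FPKM of BCYRN1 is uncertain. No 75 nt window of IER3 or SAT1 has an exact copy elsewhere. How reads with several matches were shared was not tested.

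Of 13 active genes within 100 kb of a member, 1 had a 250 nM ratio of 0.75 or more in Ku cells and none in Cov cells, beside 5.58% and 4.93% of all active genes. Active genes include rows of low FPKM, and of the abundant rows 4.88% and 0.155% reached that ratio. FLOT1, 467 bp from IER3, had 0.595 in Ku and 0.591 in Cov cells, and the 8 neighbours of IER3 ranged from 0.122 to 0.595 and from 0.155 to 0.591. The 3 neighbours of SAT1 (ACOT9, APOO and PRDX4) ranged from 0.563 to 0.754 in Ku and from 0.284 to 0.501 in Cov cells. EPCAM, near BCYRN1, had 0.472 in Ku and 0.467 in Cov cells.

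The other polyamine genes had falls in shares near those of all active genes. Of 14 active polyamine genes besides SAT1, 11 fell at 250 nM in Ku cells, where 68.6% of active genes fell, and all 14 fell in Cov cells, where 84% did (limma, same call). None rose, also at an unadjusted p under 0.05. The list was written after the members were known. AMD1, which makes the aminopropyl donor for polyamine synthesis, had the largest fall of the list: 97.5 and 87.5 FPKM in DMSO became 10.9 and 14.2 at 250 nM in Ku cells, and 69.3 and 76.5 became 10.6 and 10.1 in Cov cells. Its log2 fold changes were -2.80 (adjusted p of 1.25e-05) and -2.70 (adjusted p of 1.05e-06).

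ODC1, the first enzyme of polyamine synthesis, fell by 0.87 on the log2 scale in Ku and by 1.27 in Cov cells, and SRM, the spermidine synthase, by 1.10 and 0.90. SMS, the spermine synthase, fell by 1.07 in Cov cells, and its Ku value of -0.56 was not called (adjusted p of 0.00281). On the breakdown side, PAOX, the oxidase that acts on polyamines acetylated by SAT1, fell by 1.31 and 1.51. Its FPKM were low, so the added 1 shrinks these values, and its plain ratios were 0.171 and 0.262. SMOX, the spermine oxidase, fell by 1.49 in Cov cells and had -0.74 in Ku cells, which was not called. OAZ1, the antizyme that directs ODC1 to degradation, fell by 0.61 and 0.67, and EIF5A, the protein that carries hypusine made from spermidine, by 0.56 and 0.78.

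At 50 nM none of the 14 was called lower in Ku cells, although 7 had an unadjusted limma p under 0.05 in that direction, and 9 were called lower in Cov cells. Of all active genes 11.3% and 70.5% were called lower at that dose. Under both other scalings none of the 14 was called lower in Cov cells at 50 nM, where 21 active genes were at equal median FPKM and 110 by median of ratios. The list medians there were 0.55 and 0.36, beside 0.12 and 0.0020 over all active genes. The list medians at 250 nM were -0.85 in Ku and -1.06 in Cov cells, beside -1.11 and -1.31 over all active genes. With libraries scaled to equal median FPKM, 8 of the 14 were instead called higher in Ku and 9 in Cov cells at 250 nM, and 5 and 4 with a median-of-ratios scaling, so their falls hold for the spike-in scale. Of all active genes 26.9% in Ku and 26.4% in Cov cells were called higher at equal median FPKM, and 11.1% and 8.57% by median of ratios. AMD1 was called lower at 250 nM in both lines with all 3 scalings.

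**Figure D4:**
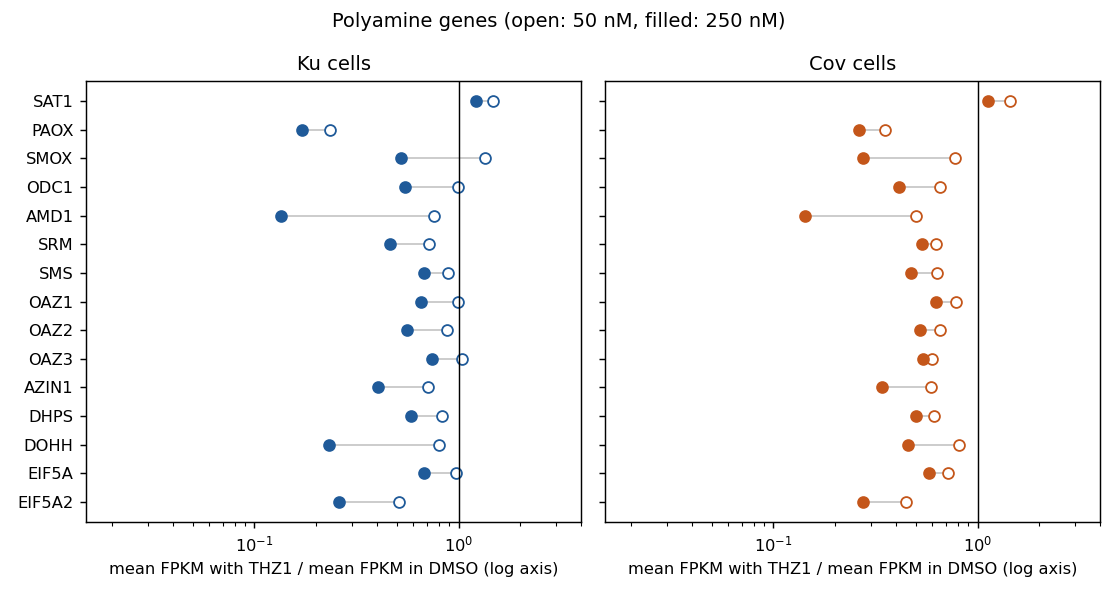
Ratio of mean FPKM with THZ1 to mean FPKM in DMSO (log axis) for SAT1 and 14 other active polyamine genes, with open points for 50 nM and filled points for 250 nM, Ku left and Cov right. The line marks a ratio of 1; SAT1 is the only gene right of it at both doses in both lines, and AMD1 lies at 0.136 and 0.142 at 250 nM.

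At 250 nM 4 other immediate early genes rose in Cov cells, where IER3 had its highest values. Of 19 active genes of that list besides IER3, 14 fell and none rose in Ku cells, where 68.6% of all active genes fell and 0.0491% rose. In Cov cells 13 fell and 4 rose, where 84% of all active genes fell and 0.105% rose. The counts of falls were thus near or below those shares. The median log2 fold change of the list was -2.29 in Ku and -1.63 in Cov cells, beside -1.11 and -1.31 over all active genes. MYC fell by 4.23 and 1.96 on the log2 scale, DUSP1, a phosphatase that turns off MAP kinases, by 3.95 and 3.45, and JUN, an AP-1 subunit, fell by 3.47 and by 1.42. No gene of this list in Ku cells had an unadjusted p under 0.05 in the upward direction at 250 nM.

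JUNB, another AP-1 subunit, had 76.2 and 82.1 FPKM in DMSO and 205 and 250.0 at 250 nM in Cov cells, a rise of 1.51 on the log2 scale (adjusted p of 1.02e-05, limma). In Ku cells it had 20.9 and 18.4 in DMSO and 11.01 and 14.7 at 250 nM (log2 fold change of -0.59, not called). IER2, a nuclear regulator, rose by 0.81, ZFP36, which speeds the decay of AU-rich mRNAs, by 0.78 and EGR1, a zinc finger factor, by 0.71 in Cov cells. In Ku cells IER2 had -0.84, which was not called, and ZFP36 and EGR1 fell by 1.95 and 2.71. EGR1, ZFP36, IER2 and JUNB were also called higher in Cov cells with libraries scaled to equal median FPKM and by median of ratios, where 8 and 7 of the 19 were, beside 26.4% and 8.57% of all active genes. In Ku cells 3 genes (ATF3, FOS and JUNB) were called higher at equal median FPKM and none by median of ratios, beside 26.9% and 11.1%. Both scalings turned the Ku ratios of JUNB (2.57 and 1.80) and IER2 (2.11 and 1.48) to above 1. At equal median FPKM 9 of the 19 were still called lower in Ku and 4 in Cov cells, DUSP1 in both and MYC and JUN in Ku cells but not in Cov cells, beside 11.6% and 11.3% of all active genes.

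**Figure D5:**
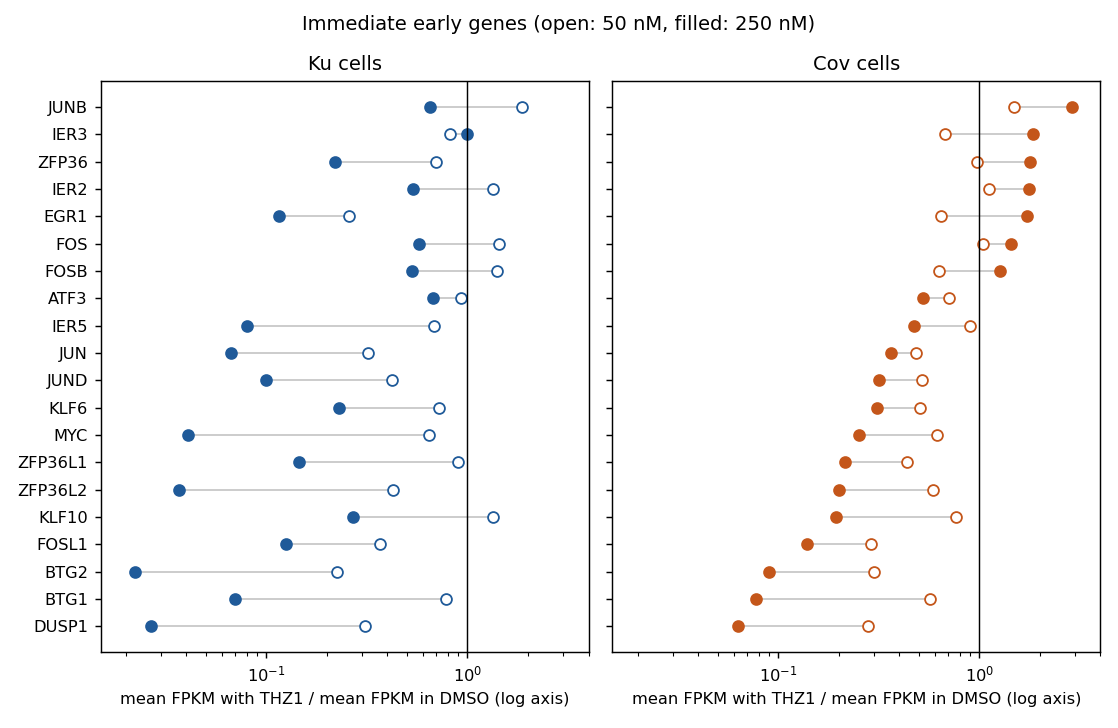
Ratio of mean FPKM with THZ1 to mean FPKM in DMSO (log axis) for IER3 and 19 other active immediate early genes, ordered by the Cov ratio at 250 nM, with open points for 50 nM and filled points for 250 nM. The line marks a ratio of 1. At 250 nM JUNB (2.87) and IER3 (1.86) lead the 7 genes right of it in Cov cells, and in Ku cells IER3 lies at it (0.996) and the other genes lie left of it.

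BC200 RNA is bound by SRP9 and SRP14, the Alu-domain proteins of the signal recognition particle, and by PABPC1 and SYNCRIP among others. Of 7 such protein genes, also listed after the members were known, 6 fell at 250 nM in Ku and 7 in Cov cells, with medians of -0.98 and -1.13. All active genes fell in shares of 68.6% and 84%, with medians of -1.11 and -1.31. SRP14, with 255 and 233 FPKM in DMSO and 227 and 198 at 250 nM in Ku cells, was the exception (log2 fold change of -0.20, not called), and it fell by 0.79 in Cov cells. Scaled to equal median FPKM, 6 of the 7 were called higher in each line, and by median of ratios 2 in Ku and 3 in Cov cells. PCBP1, an RNA-binding protein, was still called lower in Ku cells under both scalings. All active genes were called higher in shares of 26.9% and 26.4% at equal median FPKM, where their median log2 fold change was 0.29 and 0.31, and of 11.1% and 8.57% by median of ratios. The shares called lower in Ku cells were 11.6% and 19%.

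Other RNAs that polymerase III makes, and small structured RNAs, could hardly be compared with BCYRN1. Of 41 listed rows, 7 were active including BCYRN1, and no other was called at either dose in either line by limma. At an unadjusted p under 0.05, TERC was lower at both doses in Ku and higher at 250 nM in Cov cells. RMRP, the RNA of RNase MRP, ranged from 1.33 to 10.1 FPKM over the 12 libraries, and RPPH1, the RNA of RNase P, from 0.902 to 6.13. RNA5SP244, a pseudogene of 5S RNA, ranged from 0.104 FPKM, near the lowest value of its library, to 263. Its replicates were at 25.7 and 263 for 50 nM in Ku cells. BCYRN1 was the only 1 of the 41 with a DMSO mean of 20 FPKM or more in both lines.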

How the data were processed

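The 12 libraries (6 per line, 2 per condition) were grouped by their labels. The authors mixed ERCC RNAs into RNA normalized by cell count, made TruSeq stranded mRNA libraries, read 75 bases from a single end, aligned them to hg19 with HiSat and ran cuffquant and cuffnorm. The deposited FPKM, 1 table per line, were scaled to the spike-ins by the authors. These are not counts, so edgeR, which the study used, was not applied, and depth and counting error are unknown. The lines were normalized separately and were not tested against each other.

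Ratios are means of FPKM divided by each other. Log2 fold changes from limma are of FPKM + 1, so they understate falls to low FPKM. Active genes were fitted per line with limma 3.58.1 in R 4.3.3 (3 groups of 2 libraries, mean-variance trend, two-sided) on log2(FPKM + 1), with Benjamini-Hochberg adjustment over 14251 genes and calls at an adjusted p under 0.001 with a change of more than 0.5. The fit was tested on simulated data in which few genes were changed, and most changes of 1 log2 unit were missed at this threshold. The adjustment is less strict where many genes change, as here, so the share missed does not carry over to these fits. A gene at 50 nM that was not called may still differ. The study calls its samples biological duplicates and says no more of their source, so p-values measure the spread between these libraries. Comparisons at 250 nM were not tested for the members, because those values chose them.

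The members and gene lists were chosen with earlier results of these data known, and the polyamine list and the list of BC200 binding proteins were written after the members were known. Genes were named by rule: the members with the highest DMSO values or ratios, the 3 rows just below the ratio, and members called at 50 nM. Neighbours, overlapping genes and list genes given as examples were chosen after their values were seen. Gene positions come from GENCODE lifted to GRCh37, promoters from RefSeq on GRCh38.p14, and copies of the members were searched with blastn 2.17.0. Figures were drawn with matplotlib 3.10.9. Alternatives were other limits, scalings, pseudocounts, filters and fits, a replicate block and each library left out; the median-of-ratios scaling was chosen after seeing the data. The BCYRN1 sequence and 1 neighbouring gene are not reported here.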

Additional observations from a re-analysis of the deposited data

Results flagged for a closer look

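On the spike-in scale, every 250 nM library of 6 immediate early genes lay below the DMSO libraries in Ku and above them in Cov cells. The share of all active genes with such opposite orders was not computed, so the count is a description only. The difference between the lines was not tested, because their tables were normalized separately. Relative to DMSO, EGR1 was at 0.115 in Ku and 1.72 in Cov cells. The IER2 ratios were 0.539 and 1.77. JUNB had 0.654 in Ku and 2.87 in Cov cells, and ZFP36 had 0.221 and 1.79. FOS had 0.572 and 1.43, and FOSB 0.533 and 1.26, and FOS and FOSB passed the test in neither line. FOSB was low throughout, with means of 1.57 FPKM in DMSO and 0.836 at 250 nM in Ku cells, and of 1.02 and 1.28 in Cov cells. At 50 nM FOSB and KLF10 lay above DMSO in every Ku library and below it in every Cov library, with ratios of 1.41 and 0.628 for FOSB and of 1.34 and 0.769 for KLF10, neither of which passed the test at that dose. These directions depended on the scaling. With libraries scaled to equal median FPKM, FOS, FOSB, IER2 and JUNB were above DMSO in both lines, with Ku ratios of 2.26, 2.13, 2.11 and 2.57, and by median of ratios with 1.57, 1.48, 1.48 and 1.80. EGR1 stayed lower in Ku and higher in Cov cells under both scalings, and ZFP36 by median of ratios, while its Ku libraries overlapped at equal median FPKM. At 50 nM FOSB and KLF10 were above DMSO in both lines under both scalings. IER3 was not among the 6, since its 250 nM and DMSO libraries overlapped in Ku cells.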

How the results depend on the processing

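The number of rows that met the rule depended on its limits. It was 5 with a DMSO minimum of 10 FPKM, 1 (IER3) with 50, 149 with a ratio of 0.6 and 1 (SAT1) with a ratio of 1, and 6 in replicate 2 alone. It was 2314 with libraries scaled to equal median FPKM and 2320 by median of ratios, scalings that take out the loss of RNA common to most genes, and IER3 was the 1 member among those rows each time. The 250 nM ratios of SAT1 and BCYRN1 were then 2.55 or more, and they were left out because rescaling put their DMSO means, at 14.2 to 19.8 FPKM, under the minimum of 20. Leaving out 1 library at a time gave 2 to 5 rows, with 5 without Cov 250 nM replicate 2, and IER3 and SAT1 met the rule each time. At 50 nM, the count of members lower in Cov cells was 0 under both scalings, with a log2 fold change beyond 1 and with a replicate block, and 0 to 1 without single libraries. Without Cov 50 nM replicate 2 the 1 was BCYRN1. SAT1 made the count of members higher in Cov cells 1 under both scalings and at an adjusted p under 0.05, which also made the Ku count 1. IER3 reversed at 50 nM in Cov cells, to 0.66 at equal median FPKM and 0.47 by median of ratios. Replicate numbers did not pair the libraries (correlations of deviations from -0.0703 to 0.0282); with the replicate block the adjusted p of IER3 in Cov cells was 0.00156, and active genes called lower there went from 10042 to 7266. For lack of counts, what depth limits is unknown.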
